A study of Mus musculus with 10 samples.

Results

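Small leucine-rich proteoglycans are a family of secreted matrix proteins, and 10 of their genes were examined in the cochlea of mice housed with or without a running wheel: Dcn, Bgn, Aspn, Fmod, Lum, Prelp, Kera, Omd, Epyc and Ogn. They were taken by gene symbol, and each matched 1 row of the array table whose annotation gave 1 symbol, so that all 10 of 10 are among the 29766 genes tested. No filter on low values was applied. Expression was measured on 1 microarray per sample as log2 values, so a difference of 1 is a 2-fold change. All mice were CBA/CaJ, a strain that loses hearing late in life, were 6 months old, had normal hearing and were housed singly. The 5 runner samples came from cages with a wheel, and the 5 control samples came from cages without one. The series concerns long-term voluntary running and age-related hearing loss, and these arrays bear on the young ear. The labels name the cochlea as the tissue, while the protocol speaks of powdered inner ear. Whether each array holds a different animal is not stated there, so the p-values describe how these samples scatter, and that scatter may be technical.

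The core of these proteins is a curved chain of leucine-rich repeats, to which chondroitin, dermatan or keratan sulfate chains are attached in most members. They bind fibrillar collagens and set the width and spacing of fibrils, and several, among them decorin, biglycan, asporin and fibromodulin, also bind transforming growth factor beta. Class I holds decorin (Dcn), biglycan (Bgn) and asporin (Aspn). Class II holds fibromodulin (Fmod), lumican (Lum), Prelp, keratocan (Kera) and osteomodulin (Omd). Of class III the set has epiphycan (Epyc) and osteoglycin (Ogn), which are not the whole class. In the mouse cochlea Epyc is a gene of the supporting cells beside the hair cells, and mice without it hear less well. The others are mostly genes of fibroblasts, cartilage, tendon, cornea and bone.

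Of the 10 genes, 9 lie next to another one of the set on the chromosome, in the order of RefSeq's mouse assembly GRCm38.p6, and Bgn on chromosome X does not. On chromosome 10 the order was Dcn, Lum, Kera, Epyc with no other protein-coding gene between them. On chromosome 13 Ecm2, a related gene, was followed by Aspn, Omd and Ogn, and on chromosome 1 Optc was followed by Prelp and Fmod. RefSeq promoter windows, from 250 bases before to 50 bases after a start site, were at hand for 8 of the 10 genes, and Dcn and Lum had none in the table used. The windows of Epyc, which had the greatest difference between the groups, and of Bgn and Prelp, whose levels moved most closely together across the arrays, are given here. Each is written 5′ to 3′ on the strand of the gene. Capitals mark matches on either strand to TATAAA (the TATA box), TGANTCA (known from AP-1 factors), TGTGGT (RUNX factors), GGGCGG (the GC box) and AACAAT (SOX factors).
Epyc, first window, GRCm38.p6 chr10:97643818-97644117, plus strand: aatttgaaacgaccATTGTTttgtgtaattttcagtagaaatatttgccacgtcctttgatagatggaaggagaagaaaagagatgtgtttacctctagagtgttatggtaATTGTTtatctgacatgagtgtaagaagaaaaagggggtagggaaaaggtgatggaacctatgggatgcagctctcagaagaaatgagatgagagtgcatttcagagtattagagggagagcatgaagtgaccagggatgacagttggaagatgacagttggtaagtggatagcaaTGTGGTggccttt
Epyc, second window, GRCm38.p6 chr10:97646853-97647152, plus strand: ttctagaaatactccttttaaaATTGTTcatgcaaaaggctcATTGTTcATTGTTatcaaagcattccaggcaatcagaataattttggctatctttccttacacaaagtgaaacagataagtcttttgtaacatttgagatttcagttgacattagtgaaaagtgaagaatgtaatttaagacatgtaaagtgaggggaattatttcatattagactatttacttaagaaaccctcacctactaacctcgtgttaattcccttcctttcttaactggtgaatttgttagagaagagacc
Bgn, GRCm38.p6 chrX:73483351-73483650, plus strand: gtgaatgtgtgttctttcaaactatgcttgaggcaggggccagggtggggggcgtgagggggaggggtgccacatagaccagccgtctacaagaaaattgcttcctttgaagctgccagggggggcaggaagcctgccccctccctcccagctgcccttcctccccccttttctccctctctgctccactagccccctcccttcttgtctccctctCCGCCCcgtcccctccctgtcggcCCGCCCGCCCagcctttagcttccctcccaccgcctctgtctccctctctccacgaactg
Prelp, GRCm38.p6 chr1:133921352-133921651, minus strand: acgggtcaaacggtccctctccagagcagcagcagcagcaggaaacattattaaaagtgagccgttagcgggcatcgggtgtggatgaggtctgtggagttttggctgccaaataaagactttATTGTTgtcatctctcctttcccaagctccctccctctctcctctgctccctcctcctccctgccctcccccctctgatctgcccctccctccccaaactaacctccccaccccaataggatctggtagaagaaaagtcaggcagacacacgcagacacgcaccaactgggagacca
The first Epyc window held 2 matches to AACAAT and 1 to TGTGGT, and the second held 3 matches to AACAAT. Bgn held 3 matches to GGGCGG, which overlap in part, and none to AACAAT, and Prelp held 1 match to AACAAT and none to GGGCGG, so that these windows of Bgn and Prelp shared no match. AACAAT was found in 6 of the 9 windows of these genes, or in 5 of 8 genes, and in 10.7% of all 32851 windows of the table. TGTGGT was in 2 of 9 against 16.8%, TATAAA in 2 of 9 against 13.6%, GGGCGG in 1 of 9 against 35.7%, and TGANTCA in 0 of 9 against 7.81%. The windows differ in base composition, with 40.3% and 32.3% G and C in the Epyc windows and 63.7% in that of Bgn against a median of 52.7% over the table. Aspn (31.0%), Omd (37.7%), Kera (41.0%), Ogn (42.3%) and Fmod (51.0%) were also below that median, and Prelp (55.3%) was above it. AACAAT is itself rich in A and T, and its share over windows of like composition was not computed. A match of letters is not a bound site.

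The number of genes that passed over the whole table depended on runner 1. Over all genes, 2 differed at a limma adjusted p under 0.05, or 0.00672% of the genes tested, and without runner 1 there were 99, or 0.333%. Without runner 1 and control 1 together, an alternative chosen with results of these data in view, there were 426, or 1.43%. Correlations between arrays across genes were 0.991 to 0.997 within runners and 0.995 to 0.997 within controls. The median log2 value of an array was 5.39 to 5.42 in controls and 5.35 to 5.43 in runners. In this median runners 2, 3 and 4 lay below every control, and runner 1 was the highest of all 10 arrays. The mean over 8 hair cell markers was 5.07 to 5.25 in controls, below these medians, and with no detection measure in the table it cannot be said which of them were above background. Markers of bone and skeletal muscle were bright in the same samples, at 7.88 to 8.10 for 7 osteoblast genes and at 8.24 to 9.01 for 6 muscle genes in controls, so transcripts of bone and muscle were in the samples as well. With 5 arrays a group, precision is limited throughout.

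Most of the proteoglycan genes had somewhat lower mean levels in the runners, but none passed the test. Of the 10 genes, 9 had a difference below 0, where 49.5% of all genes did, and Aspn was the exception. At an unadjusted limma p under 0.05, 2 of the 10 were lower, Epyc and Dcn, where 3.92% of all genes were, and 0 were higher, where 3.21% of all genes were. The genes were chosen with earlier results of these data known, and most pairs of them correlated above 0 across the arrays. These counts therefore describe the set and do not test it. The adjusted p-values from limma ran from 0.583 for Epyc to 0.956 for Prelp, so 0 of the 10 were called. The median difference of the 10 genes was -0.16, against 0.00091 for all genes tested. For 0 of the 10 did all 5 runners lie below all 5 controls, as 0.548% of all genes did. The count at an unadjusted p under 0.05 rested on single arrays: it was 4 of 10 without runner 1 (8.59% of all genes), 5 of 10 without runner 1 and control 1 (9.07% of all genes) and 3 of 10 without control 3 (3.69%) or control 5 (3.03%). It was 1 of 10 without control 2 (2.57%), control 4 (3.504%), runner 2 (3.46%) or runner 4 (2.72%).

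**Figure D1:**
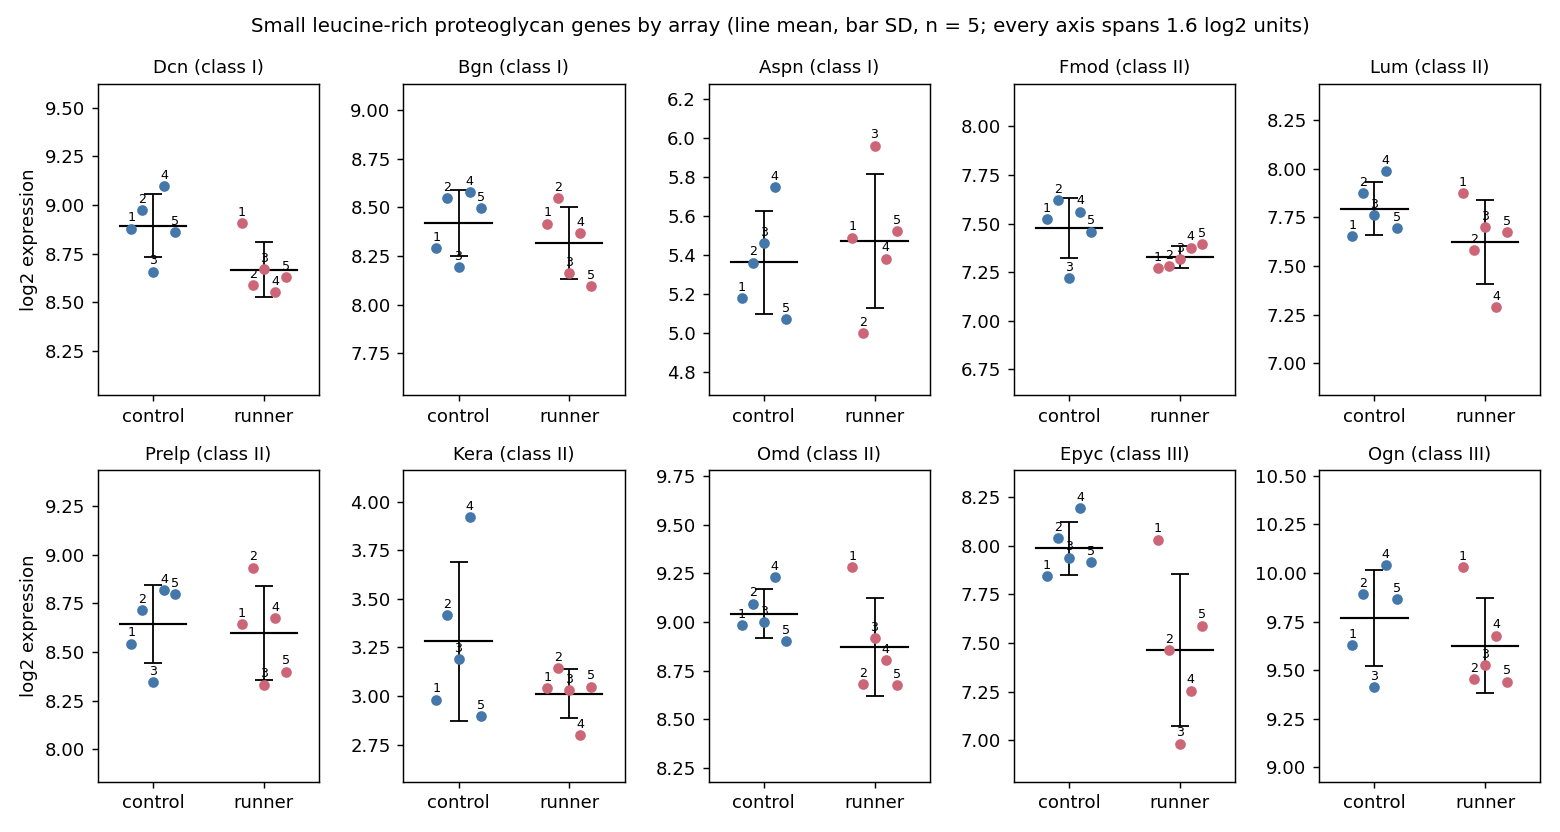
Log2 expression of the 10 genes on each array (vertical axis, 1.6 log2 units in every panel), with the 5 controls in blue and the 5 runners in red, numbered by replicate. Lines are group means and bars the SD. For Epyc runners 2 to 5 lie below all controls, and runner 1 lies among the controls, and for each of the 10 genes the groups overlap.

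Epyc, the epiphycan gene of class III, showed the greatest difference of the set. Its log2 level was 7.84, 8.04, 7.94, 8.19 and 7.92 in controls 1 to 5. In runners 1 to 5 it was 8.03, 7.46, 6.98, 7.26 and 7.59. Runners 2 to 5 were thus below the lowest control, while runner 1 was above 3 of the 5 controls, and the runners spread more widely. The control mean was 7.99 ± 0.14 (SD, n = 5) and the runner mean 7.46 ± 0.39 (SD, n = 5). They differed by -0.52 ± 0.15 (SE) with a 95% interval of -0.86 to -0.19, or 1.44-fold. This did not pass over all genes (limma unadjusted p = 0.00515, adjusted p = 0.583). The exact permutation test of this gene alone, over all 252 assignments of the arrays, gave a two-sided p = 0.0317, where the smallest possible is 0.00794. Without runner 1 the difference was -0.66 ± 0.11 (SE), and it then passed (limma adjusted p = 0.0480). Without runner 1 and control 1 it was -0.70 ± 0.12 (SE; limma adjusted p = 0.0354). Runner 1 exceeded the mean of runners 2 to 5 by 0.71, and runner 3 lay -0.60 from the mean of its fellows. In bulk samples fewer cells of a type and less RNA per cell cannot be told apart.

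Ogn, the other class III gene of the set, encodes osteoglycin, a matrix protein also called mimecan. It had log2 levels of 9.63, 9.89, 9.41, 10.04 and 9.87 in controls and of 10.03, 9.45, 9.53, 9.68 and 9.44 in runners. Runner 1 was nearly as high as the highest control, no runner was below the lowest control, and the groups overlapped. The difference of -0.14 ± 0.13 (SE) was within the spread between arrays (limma adjusted p = 0.840). It moved with single arrays in both directions, to -0.075 without control 4, -0.23 without control 3 and -0.24 without runner 1, and was -0.28 ± 0.12 (SE; limma adjusted p = 0.300) without runner 1 and control 1.

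In class I, Dcn encodes decorin, the best-known collagen-binding proteoglycan of connective tissue. Its log2 level was 8.88, 8.97, 8.66, 9.10 and 8.86 in controls and 8.91, 8.59, 8.67, 8.55 and 8.63 in runners. Runners 2, 4 and 5 were below every control, runner 3 was just above the lowest control, and runner 1 was above 3 of the 5 controls. The control mean was 8.89 ± 0.16 (SD, n = 5) and the runner mean 8.67 ± 0.14 (SD, n = 5). The difference of -0.22 ± 0.088 (SE; 95% interval -0.42 to -0.034), or 1.17-fold, did not pass (limma unadjusted p = 0.0247, adjusted p = 0.638), and the exact permutation test gave p = 0.0635, two-sided. Without runner 1 it was -0.28 ± 0.080 (SE; limma adjusted p = 0.122).

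Bgn and Aspn, the other class I genes of the set, showed no such pattern. Bgn, the biglycan gene, is expressed in bone and cartilage among other tissues. It was at 8.29, 8.55, 8.19, 8.58 and 8.498 in controls and at 8.42, 8.55, 8.16, 8.37 and 8.09 in runners, and the groups lay over each other. Its difference was -0.10 ± 0.10 (SE; limma adjusted p = 0.851), and it was -0.048 without runner 5, -0.064 without runner 3 or control 4 and -0.16 without runner 2 or control 3. Aspn, the asporin gene, encodes a protein that binds collagen, calcium and transforming growth factor beta. It was at 5.18, 5.36, 5.46, 5.75 and 5.07 in controls and at 5.49, 4.999, 5.96, 5.38 and 5.52 in runners, with the highest and the lowest of the 10 arrays both among the runners. Its difference was 0.11 ± 0.16 (SE; limma adjusted p = 0.913), and -0.015 without runner 3, the array with the most skeletal muscle signal, 0.034 without control 5, 0.061 without control 1, 0.20 without control 4 and 0.23 without runner 2.

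The 5 class II genes all had differences below 0, and none reached an unadjusted limma p under 0.05. Fmod encodes fibromodulin, a keratan sulfate proteoglycan of tendon and cartilage. It was at 7.52, 7.62, 7.22, 7.56 and 7.46 in controls and at 7.27, 7.28, 7.32, 7.38 and 7.40 in runners. All 5 runners were below the lowest of controls 1, 2, 4 and 5, whereas control 3 was the lowest of all 10 arrays. The runner values were the tightest of any gene in the set, with an SD of 0.056 against 0.16 in controls. The difference was -0.15 ± 0.073 (SE; limma unadjusted p = 0.0651, adjusted p = 0.704), and -0.21 without control 3, an array that was low for several of these genes.

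Lum and Omd both had their highest runner value in runner 1. Lum encodes lumican, a collagen-spacing proteoglycan best known from the cornea, and was at 7.65, 7.88, 7.76, 7.99 and 7.70 in controls and at 7.88, 7.58, 7.70, 7.29 and 7.67 in runners. Runner 1 was level with control 2, the second highest control, and runners 2 and 4 were below every control. Omd encodes osteomodulin, a proteoglycan of bone matrix that is made by osteoblasts, and was at 8.98, 9.09, 8.999, 9.23 and 8.90 in controls and at 9.28, 8.68, 8.91, 8.80 and 8.67 in runners. Runner 1 was the highest of all 10 arrays, while runners 2, 4 and 5 were below every control. Their differences were the same to 2 decimals, -0.17 ± 0.10 (SE; limma adjusted p = 0.757) for Lum and -0.17 ± 0.11 (SE; limma adjusted p = 0.774) for Omd. For Lum the difference was -0.086 without runner 4, the array farthest from its fellows, and -0.23 ± 0.096 (SE; limma adjusted p = 0.282) without runner 1. For Omd it was -0.27 ± 0.078 (SE; limma adjusted p = 0.125) without runner 1.

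Prelp and Kera complete class II. Prelp encodes a proline- and arginine-rich protein that binds heparan sulfate and collagen, and was at 8.54, 8.72, 8.34, 8.82 and 8.80 in controls and at 8.64, 8.93, 8.33, 8.68 and 8.40 in runners. The groups overlapped across their whole range, and the difference of -0.047 ± 0.12 (SE; limma adjusted p = 0.956) turned above 0 without runner 3, at 0.019, and without runner 5, at 0.0024, and was furthest from 0 without runner 2, at -0.13, among single arrays left out. Kera, the keratocan gene of the corneal stroma, was dim, with a mean level above that of 16.2% of the genes tested. It was at 2.98, 3.42, 3.19, 3.92 and 2.90 in controls and at 3.04, 3.14, 3.03, 2.80 and 3.05 in runners. Controls 2, 3 and 4 were above every runner, and controls 1 and 5 were below 4 of the 5 runners. Its difference was -0.27 ± 0.16 (SE; limma adjusted p = 0.756), and -0.11 without control 4. Fold changes of dim genes are understated in values of this kind.

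**Figure D2:**
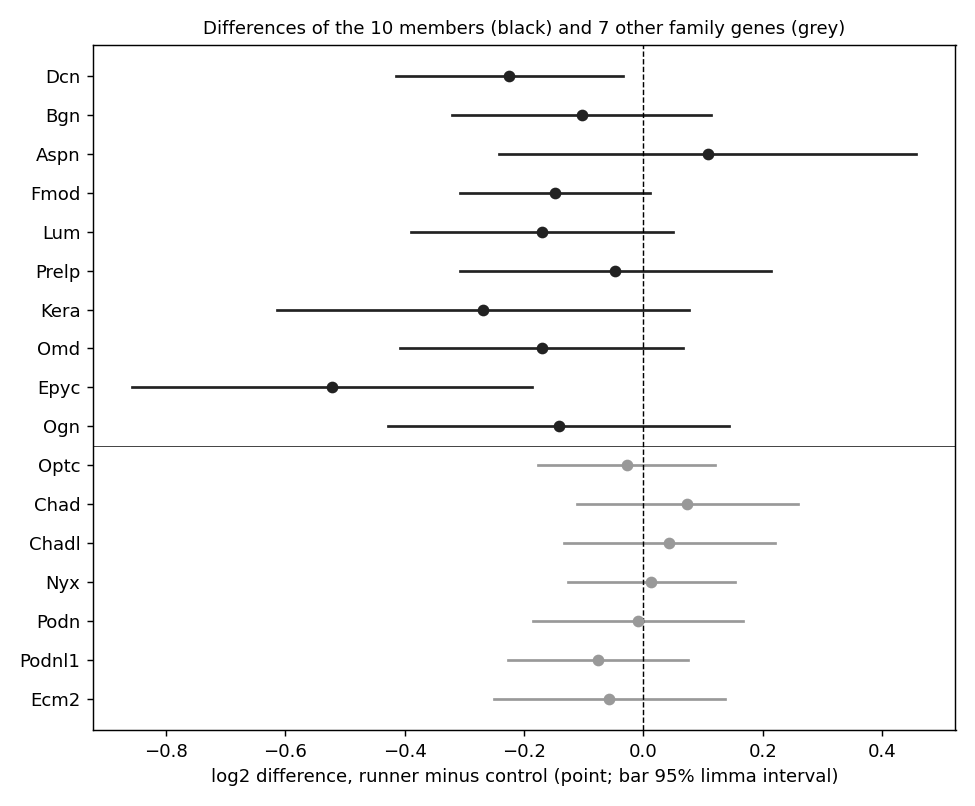
Log2 difference, runner minus control (horizontal axis), with its 95% limma interval for the 10 genes (black) and for 7 related genes of the family (grey). The intervals of Epyc, from -0.86 to -0.19, and Dcn, from -0.42 to -0.034, lie below 0 and the other 15 include it.

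Runner 1 was the highest runner for 5 of the 10 genes, Epyc, Omd, Ogn, Lum and Dcn. It exceeded the mean of runners 2 to 5 by 0.71 for Epyc, 0.51 for Omd, 0.50 for Ogn, 0.32 for Lum and 0.30 for Dcn. For Fmod it lay -0.071 from that mean, and it lay 0.022 above it for Aspn and 0.035 above it for Kera. Among the controls, control 4 was the highest for 9 of the 10 genes, all but Fmod, and control 3 was the lowest for 5, Dcn, Bgn, Fmod, Prelp and Ogn.

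A further 7 genes of the family were measured, and 0 of them passed. Optc (opticin), Chad (chondroadherin), Chadl, Nyx (nyctalopin), Podn (podocan), Podnl1 and Ecm2 had differences between -0.076 and 0.074, 4 below and 3 above 0, with 0 at an unadjusted limma p under 0.05. Their median difference was -0.0088, and their 95% intervals lay within -0.25 to 0.26. The smallest p belonged to Podnl1, at -0.076 ± 0.070 (SE; limma adjusted p = 0.839), followed by Chad, a cartilage protein that binds collagen, at 0.074 ± 0.085 (SE; limma adjusted p = 0.885). Ecm2, the neighbour of Aspn, differed by -0.057 ± 0.089 (SE), and Optc, the neighbour of Prelp, by -0.028 ± 0.068 (SE). Tsku of the same family is not analysed here.

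Across the arrays the 10 genes did not vary as 1 block. The correlation of each pair was computed over the deviations of the 10 arrays from their group means, which takes out the difference between the groups, with exact p-values from the 14400 permutations within groups. Of the 45 pairs, 41 had a Pearson r above 0, with a median of 0.38, and 0 of 45 had an adjusted p under 0.05 after Benjamini-Hochberg adjustment, against 6 at an unadjusted p under 0.05. The closest pair was Bgn and Prelp, from classes I and II and different chromosomes, with r = 0.95 (exact permutation p = 0.00132, adjusted p = 0.0594) and rho = 0.89 (exact permutation p = 0.00313, adjusted p = 0.141). Without the arrays farthest from the median of Bgn, 2 in number, r was 0.94. Both genes were high in runner 2 and low in runners 3 and 5 and control 3, as their array values above show.

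The next highest correlations were among Dcn, Ogn and Omd, each of which had its highest runner value in runner 1. Dcn and Ogn had r = 0.87 (exact permutation p = 0.00653, adjusted p = 0.100) and rho = 0.81 (exact permutation p = 0.0113, adjusted p = 0.194), and r was 0.65 without the 2 arrays farthest from the median of Dcn. Dcn and Omd had r = 0.78 (exact permutation p = 0.0103, adjusted p = 0.116) and rho = 0.73 (exact permutation p = 0.0237, adjusted p = 0.194). Here r was 0.29 without the 2 farthest arrays, so the relation was not shown to hold without them. Leaving out the farthest arrays also narrows the range, which by itself tends to lower r. The neighbours Omd and Ogn had r = 0.76 (exact permutation p = 0.0183, adjusted p = 0.165) and rho = 0.68 (exact permutation p = 0.0352, adjusted p = 0.194), and r was 0.24 without the 2 farthest. The neighbours Lum and Kera had r = 0.67 (exact permutation p = 0.00667, adjusted p = 0.100) and rho = 0.71 (exact permutation p = 0.0328, adjusted p = 0.194), and r was 0.89 without the 2 farthest. The neighbours Dcn and Lum had r = 0.73 (exact permutation p = 0.0272, adjusted p = 0.204) and rho = 0.75 (exact permutation p = 0.0248, adjusted p = 0.194), and r was 0.40 without the 2 farthest. Lower values among neighbours were r = 0.34 for Prelp and Fmod (rho = 0.22; exact permutation p = 0.347 and 0.562, adjusted p = 0.553 and 0.722) and r = 0.38 for Kera and Epyc (rho = 0.67; exact permutation p = 0.0697 and 0.0160, adjusted p = 0.351 and 0.194). Aspn had the lowest correlations with the others, with r = -0.54 to Prelp (rho = -0.56; exact permutation p = 0.137 and 0.121, adjusted p = 0.431 and 0.455), which was -0.026 without the 2 farthest arrays.

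**Figure D3:**
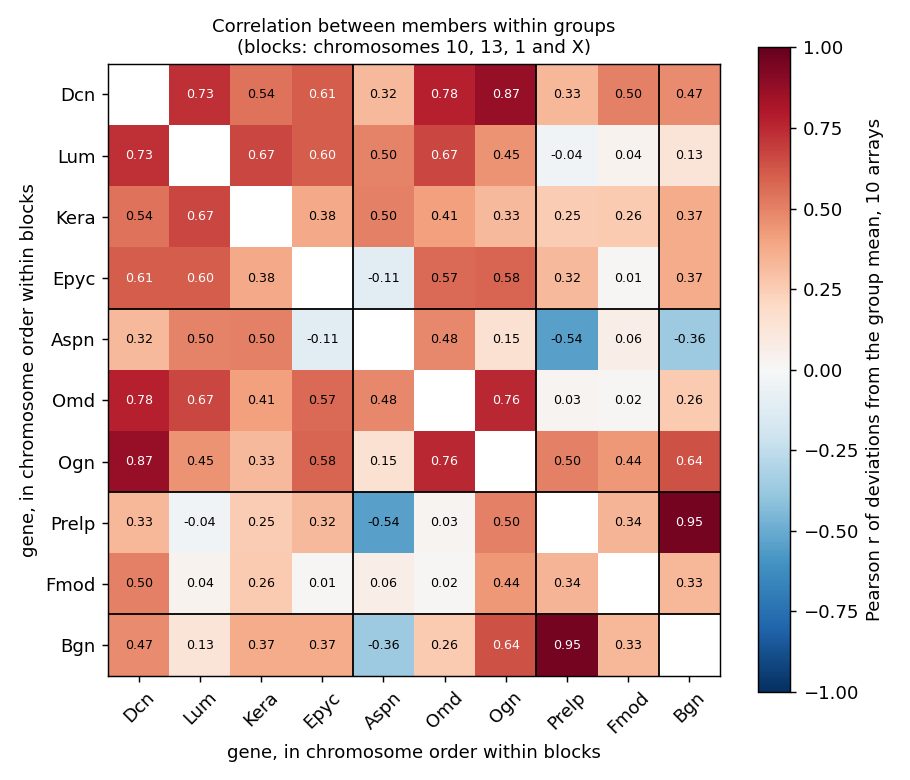
Pearson r between each pair of the 10 genes over deviations from the group mean on 10 arrays, with genes (both axes) in chromosome order and lines between chromosomes 10, 13, 1 and X. The darkest cells are Bgn with Prelp at 0.95 and Dcn with Ogn at 0.87, and the lowest is Aspn with Prelp at -0.54.

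Markers of the cells that could hold these transcripts were also lower on average in the runners. Beside the counts below, 49.5% of all genes had a difference below 0, and 3.92% were lower at an unadjusted limma p under 0.05. Genes said to lead a list, or to come first in it, have its smallest p and not always its greatest difference. The mean over 8 markers of supporting cells and the tectorial membrane, where Epyc belongs, was 6.75 to 6.998 in controls and 6.46 to 7.01 in runners, a difference of -0.23. Of these 8 genes, 7 had a difference below 0 and 3 were lower at an unadjusted limma p under 0.05, led by Otogl, an otogelin-like matrix gene, at -0.41 ± 0.15 (SE; limma adjusted p = 0.616), and Sox2, a transcription factor of supporting cells, at -0.23 ± 0.094 (SE; limma adjusted p = 0.649). The mean was highest in runner 1 of all 10 arrays. The mean over 6 spiral ligament fibrocyte markers was 8.12 to 8.37 in controls and 7.60 to 8.45 in runners, again with runner 1 at the top, and 6 of 6 had differences below 0, led by Tbx18 at -0.37 ± 0.13 (SE; limma adjusted p = 0.607) and Pou3f4 at -0.35 ± 0.13 (SE; limma adjusted p = 0.608). Hair cell markers differed by -0.17 as a mean, with 8 of 8 below 0 and Ocm (-0.32 ± 0.12) and Slc26a5, the prestin gene (-0.21 ± 0.090, SE), first. Stria vascularis markers differed by -0.19, with 6 of 8 below 0 and Cldn11 (-0.25 ± 0.064) and Tyr (-0.37 ± 0.11, SE) first. The part of these cells in the difference of Epyc was not tested.

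Of the marker lists, that of osteoblasts had the greatest difference in means. The mean over 7 osteoblast markers was 7.88 to 8.10 in controls and 7.30 to 7.72 in runners. The groups did not overlap in this mean, and its difference was -0.49. All 7 were below 0 and 6 were lower at an unadjusted limma p under 0.05, against 49.5% and 3.92% of all genes. Bglap (-0.85 ± 0.066 SE; limma adjusted p = 0.000402) and Bglap2 (-0.95 ± 0.083 SE; limma adjusted p = 0.000806), near-identical osteocalcin genes whose probes may share signal, fell. No other gene of the table was called. Bglap and Bglap2 both count in the osteoblast mean and had the greatest differences of its list. The separation of the groups in that mean therefore leans on them, and the mean without them was not computed. All runners were below all controls for Bglap, Bglap2 and Col1a1. For the other osteoblast markers the highest runner lay above the lowest control: Sp7 (5.68 against 5.66), Ibsp (8.66 against 8.26), Alpl (7.04 against 6.92) and Phex (7.91 against 7.69). The osteoblast product Omd, at -0.17 ± 0.11 (SE), did not pass. Cartilage markers differed by -0.095 as a mean, with 5 of 7 below 0, led by Col2a1 (-0.20 ± 0.054) and Col9a1 (-0.19 ± 0.059, SE), and tendon markers by -0.18, with 4 of 5 below 0, led by Tnmd (-0.34 ± 0.096) and Tnc (-0.27 ± 0.081, SE). None of these cartilage and tendon genes passed over all genes. The osteoblast list holds Col1a1 and the cartilage list Col2a1, which are also counted among the collagens.

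Each gene was set against the mean of each marker list over the deviations from the group means, 80 relations in all. Of these, 67 had a Pearson r above 0, with a median of 0.42. At an unadjusted exact permutation p under 0.05 there were 12, and 1 had an adjusted p under 0.05. This was Aspn with skeletal muscle, at r = 0.94 (exact permutation p = 0.000486, adjusted p = 0.0389) and rho = 0.88 (exact permutation p = 0.00153, adjusted p = 0.122), and r was 0.87 without the 2 arrays farthest from the median of Aspn. The tendon list stood near to Aspn as well, with r = 0.82 (rho = 0.82; exact permutation p = 0.00722 and 0.00944, adjusted p = 0.161 and 0.254). Without the same 2 arrays that r was 0.88. The muscle mean ran from 8.22 to 9.24 in runners and from 8.24 to 9.01 in controls, with runner 3 and control 4 at the top and runner 2 and control 5 at the bottom, as for Aspn. It differed by -0.043 between the groups, with 4 of 6 genes below 0 and Myh1 (-0.12 ± 0.19) and Tnnt3 (-0.11 ± 0.20, SE) first. Epyc had r = 0.88 to the osteoblast mean (rho = 0.64; exact permutation p = 0.00750 and 0.0842, adjusted p = 0.161 and 0.471) and r = 0.81 to the supporting cell mean (rho = 0.64; exact permutation p = 0.0333 and 0.0948, adjusted p = 0.268 and 0.471). Without the 2 arrays farthest from the median of Epyc these were 0.51 and 0.41. Neither relation was thus shown to hold without those arrays, though the narrower range also tends to lower r. Other lists stood as near to Epyc, with r = 0.88 to hair cells (rho = 0.68; exact permutation p = 0.0140 and 0.0687, adjusted p = 0.223 and 0.471), 0.81 to spiral ligament fibrocytes (rho = 0.72; exact permutation p = 0.0473 and 0.0792, adjusted p = 0.268 and 0.471) and 0.74 to the stria vascularis (rho = 0.65; exact permutation p = 0.0503 and 0.105, adjusted p = 0.268 and 0.471). Without the 2 farthest arrays these were 0.45, 0.59 and 0.31. Dcn had r = 0.71 to the spiral ligament fibrocyte mean (rho = 0.54; exact permutation p = 0.00806 and 0.134, adjusted p = 0.161 and 0.471), and 0.31 without the 2 farthest.

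**Figure D4:**
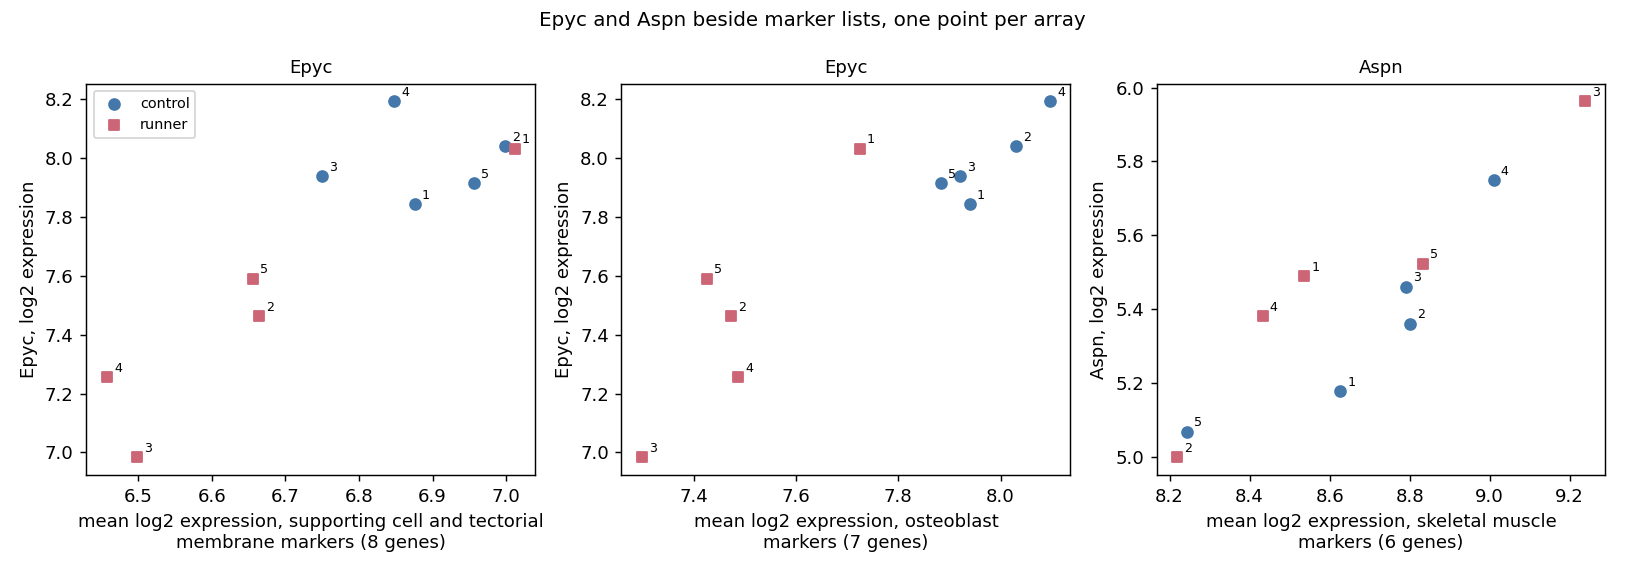
Log2 expression of Epyc (left and middle) and Aspn (right) on the vertical axis against the mean log2 expression of a marker list on the horizontal axis, 1 point per array, controls as blue circles and runners as red squares. Runners 2 to 5 lie low in Epyc and in both lists, and Aspn follows the muscle list in both groups. Runner 1 lies with the controls for supporting cells and below them for osteoblasts. The osteoblast mean counts both Bglap and Bglap2, whose probes may share signal.

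The collagens to which these proteoglycans bind had lower means throughout. For comparison, 49.5% of all genes were below 0, and 0.548% had all runners below all controls. At an unadjusted limma p under 0.05, 3.92% of all genes were lower and 3.21% higher. Of 14 genes of fibrillar collagens and fibril partners, 14 had a difference below 0, 10 at an unadjusted limma p under 0.05 and 0 after adjustment over all genes. The median difference was -0.18, close to the -0.16 of the 10 proteoglycan genes, and for 3 of the 14 all runners lay below all controls. Col1a1 and Col1a2, which encode type I collagen, led with -0.61 ± 0.11 (SE; limma adjusted p = 0.172) and -0.45 ± 0.086 (SE; limma adjusted p = 0.279). Of 10 genes for transforming growth factor beta and related ligands, receptors and processing, 9 were below 0, 4 at an unadjusted limma p under 0.05 and 0 adjusted, with a median of -0.14. Ltbp1, which holds the latent growth factor in the matrix, differed by -0.21 ± 0.084 (SE; limma adjusted p = 0.640) and the receptor gene Tgfbr2 by -0.28 ± 0.11 (SE; limma adjusted p = 0.652). Of 20 genes that build and sulfate the glycosaminoglycan chains, 16 were below 0, 3 lower and 1 higher at an unadjusted limma p under 0.05 and 0 adjusted, with a median of -0.051. Chst5, a sulfotransferase of the keratan sulfate pathway, differed by -0.28 ± 0.099 (SE; limma adjusted p = 0.607), and Dsel, a gene of dermatan sulfate synthesis, by -0.22 ± 0.080 (SE; limma adjusted p = 0.608).

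Among 19438 other named genes, those with the pattern most like Epyc over the deviations of the 10 arrays were Itpripl1, Zc3hav1, Pik3cd, Cdca4 and H2-DMb2, with Pearson r of 0.95 each. The nearest gene to Dcn was Ghr (r = 0.96), to Bgn Pstpip2 (r = 0.98), to Prelp Mr1 (r = 0.99), to Aspn Tsga10 (r = 0.97) and to Ogn Golim4 (r = 0.97). For Lum it was Olfr167 (r = 0.98), for Omd Cdh9 (r = 0.95), for Kera Banp (r = 0.98) and for Fmod Olfr944 (r = 0.93). These values describe the best of many genes over 10 arrays, which share their tissue mix.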

How the data were processed

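Total RNA of frozen, powdered inner ear was labelled with biotin by the WT PLUS kit, per the labels' protocols. The values are log2 expression per probe set as deposited by the authors, and RMA and Partek are named, without versions, per the submitters' processing notes. The genome build of the array values is not given in the sources used here. RMA makes the arrays' distributions alike, which hides any shift common to most genes, and it understates fold changes of dim genes.

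Of 39295 probe sets, 30130 had 1 gene symbol, 2146 several and 7019 none. Symbols were updated through Entrez identifiers for 827 (RefSeq, GRCm38.p6), and the brightest probe set per gene was kept, which left 29766 genes. The test was limma (version 3.58.1, in R 4.3.3) with a term for group, two-sided and with moderated variance, and p-values were adjusted by Benjamini-Hochberg over all genes with a threshold of 0.05. Differences are runner minus control with the moderated SE. On simulated data of this size the test recovered 83% of 100 genes changed by 0.5 log2 and 99% of 100 changed by 1, with 6 false calls. The simulated arrays scattered independently, with no array apart from its group, and far more genes were changed than the 2 called here. These shares are therefore not the chance of calling such a difference in the real arrays. Correlations and sequence matches were computed in Python 3.11.15, and figures drawn with matplotlib 3.10.9. The named genes were the 10 proteoglycan genes, the other family genes, the 2 genes of smallest p per list, and the genes nearest in pattern, 5 for Epyc and 1 for each other, without predicted and non-coding symbols. The genes and lists were chosen with earlier results of these data known. Alternatives were other scalings, filters, moderation, array weights, probe set rules, a replicate block and arrays left out.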

Additional observations from a re-analysis of the deposited data

Results flagged for a closer look

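In 78 groups of 5 arrays, for the 39 genes given with values, an array was set apart when its gap to the nearest other array was over 0.71 of the group's range, which chance gives in about 1 of 20 groups, or 3.9 here. There were 2 such arrays, and 0 of them concerned one of the 10 proteoglycan genes, so that runner 1 was not set apart in Epyc by this measure. Chadl was at 5.26 in control 4, where the nearest control was at 5.51. Tyr was at 4.78 in control 1, where the nearest control was at 4.95.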

How the results depend on the processing

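Of 19 alternatives for each gene (18 for Kera, which a filter on dim genes removed), Epyc passed in 2, without runner 1 and without runner 1 and control 1, and the other 9 genes passed in 0. The difference of Epyc ranged from -0.70 to -0.40, of Dcn from -0.29 to -0.17 and of Omd from -0.29 to -0.12. With median centring these were -0.50, -0.20 and -0.15. The filter, the changes of moderation, the mean of probe sets and the replicate block could not alter a difference of the 10 genes, only its error. Differences that changed sign were those of Aspn (-0.015 without runner 3, range with single arrays left out -0.015 to 0.23) and Prelp (0.019 without runner 3 and 0.0024 without runner 5, range -0.13 to 0.019). The number of the 10 genes lower at an unadjusted p under 0.05 was 2, ranged from 1 to 4 with single arrays left out, and was 5 without runner 1 and control 1. The number of genes called over the whole table was 2, ranged from 2 to 99 with single arrays left out, and was 1 without moderation, 15 with array weights and 426 without runner 1 and control 1. Same-numbered arrays had correlations of -0.25 to 0.28 in their deviations from the group means. No pairing by replicate number was seen, but so few correlations cannot exclude one. With the replicate number as a block, 2 genes were called over the whole table, and the count of the 10 genes lower at an unadjusted p under 0.05 was also 2. The difference of Epyc, which this block cannot alter, was -0.52 (limma adjusted p = 0.739). The cause of these shifts was not tested.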
